A study of Mus musculus with 2 samples.

Results

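The genes described here are the 5 that encode the NF-kB subunits of the mouse, Rela, Rel, Relb, Nfkb1 and Nfkb2. They were chosen by symbol alone, and are 5 of 55536 annotated genes and 36 of 141864 annotated transcripts. RNA was from the nucleoplasm of bone marrow-derived macrophages, primary cells of the C57BL/6J strain that were given Lipid A, which the receptor TLR4 binds, at 100 ng/ml for 30 min. All ribosome-depleted libraries were of that 1 group, biological replicates 1 and 2, made from 1 µg and 500 ng of RNA. The fraction is called nucleoplasmic in the sample descriptions and nuclear in other labels, both replicates cite the same donor entry but different biosamples, and sex and age were not collected. No label beyond the word biological places the replicates in separate cultures, and their spread may be technical. No unstimulated cells were analysed here, so the values describe stimulated cells alone and hold no measure of induction.

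NF-kB proteins are transcription factors that bind DNA as dimers through a shared Rel homology domain. RelA (also called p65), c-Rel and RelB carry an activation domain. The products of Nfkb1 and Nfkb2 are made as precursors, p105 and p100, whose processing gives the DNA-binding subunits p50 and p52, which lack such a domain. In resting macrophages dimers are held in the cytoplasm by IkB proteins and by the precursors themselves. Signals from TLR4 activate the IKK kinases, IkB is degraded, and freed dimers enter the nucleus, where genes of the IkB proteins and of several subunits are among their known targets.

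The members share an ancestral domain, and a part of it with a known role is shown first. The lines give the codons of the loop with which each subunit contacts DNA, 5′ to 3′ on the coding strand and each within 1 exon, from the reference transcripts of GENCODE M21 on mm10. The loop was located by searching translated coding transcripts for the amino acids RFRY, any residue, then CEG. Part of the shared bases, also in the pair counts below, was therefore fixed by that search. Capitals mark the 22 of 48 bases that are the same in all 5 genes.
Rela, chr19:5638613-5638660: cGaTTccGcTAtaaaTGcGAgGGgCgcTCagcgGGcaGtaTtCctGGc
Rel, chr11:23761055-23761102: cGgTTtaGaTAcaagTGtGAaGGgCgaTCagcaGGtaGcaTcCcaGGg
Relb, chr7:19619556-19619603: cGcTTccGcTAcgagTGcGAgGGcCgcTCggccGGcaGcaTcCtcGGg
Nfkb1, chr3:135655542-135655589: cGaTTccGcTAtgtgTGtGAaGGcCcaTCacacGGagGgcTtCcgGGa
Nfkb2, chr19:46306780-46306827: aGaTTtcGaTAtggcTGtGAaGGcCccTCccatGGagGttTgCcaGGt
Rela and Relb shared 36 of the 48 bases, the most of the 10 pairs, and Nfkb2 and Relb shared 26, the fewest. Over whole transcripts the longest identical run in the same orientation between any pair was 17 bases, so a longer stretch of annotated transcript belongs to 1 member alone in that orientation.

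The promoter windows are shown because several of these genes are known targets of the factors they encode. RefSeq windows on GRCm38.p6, the assembly called mm10, run from 250 bases before to 50 bases after a start site, and they were matched by symbol for 3 of the 5 genes, with 3 windows for Nfkb2 and 1 each for Rel and Rela. The windows below are written 5′ to 3′ in the direction of the gene, and capitals mark matches to the kB consensus on either strand, with overlapping matches joined.
Rel promoter, chr11:23770920-23771219, minus strand: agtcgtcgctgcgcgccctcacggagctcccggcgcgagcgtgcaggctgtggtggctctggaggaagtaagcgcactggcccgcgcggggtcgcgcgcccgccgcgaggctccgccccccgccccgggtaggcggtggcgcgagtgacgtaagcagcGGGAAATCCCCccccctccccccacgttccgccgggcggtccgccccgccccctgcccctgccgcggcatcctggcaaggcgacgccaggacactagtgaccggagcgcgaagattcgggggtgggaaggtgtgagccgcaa
Rela promoter, chr19:5637291-5637590, plus strand: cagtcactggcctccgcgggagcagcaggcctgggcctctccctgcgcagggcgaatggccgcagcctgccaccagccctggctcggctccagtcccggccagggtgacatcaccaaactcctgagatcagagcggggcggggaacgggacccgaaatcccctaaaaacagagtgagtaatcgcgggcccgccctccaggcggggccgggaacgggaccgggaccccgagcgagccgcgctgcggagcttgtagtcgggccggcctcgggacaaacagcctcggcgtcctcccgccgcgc
Nfkb2 promoter 1, chr19:46304487-46304786, plus strand: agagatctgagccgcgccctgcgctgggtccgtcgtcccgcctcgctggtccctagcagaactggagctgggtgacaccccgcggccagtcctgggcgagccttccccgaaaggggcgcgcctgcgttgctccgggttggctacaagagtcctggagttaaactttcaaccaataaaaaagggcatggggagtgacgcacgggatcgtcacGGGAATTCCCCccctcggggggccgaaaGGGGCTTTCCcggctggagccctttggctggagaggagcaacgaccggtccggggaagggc
Nfkb2 promoter 2, chr19:46305445-46305744, plus strand: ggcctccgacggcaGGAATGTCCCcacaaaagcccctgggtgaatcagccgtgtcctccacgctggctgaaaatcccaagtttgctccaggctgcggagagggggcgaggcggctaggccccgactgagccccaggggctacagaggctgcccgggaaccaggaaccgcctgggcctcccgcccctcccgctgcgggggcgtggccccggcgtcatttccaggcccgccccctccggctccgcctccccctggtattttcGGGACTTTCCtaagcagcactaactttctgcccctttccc
The Rel window holds 1 match, the palindrome-like run GGGAAATCCCC, which begins 92 bases before the start site and fits on both strands. Nfkb2 promoter 1 holds GGGAATTCCCC at 39 bases and GGGGCTTTCC at 11 bases before its start. Nfkb2 promoter 2 holds GGAATGTCCC, a match on the opposite strand, at 236 bases before its start, and GGGACTTTCC at 10 bases after it. The remaining Nfkb2 window overlaps promoter 2 and holds only that same GGGACTTTCC run. The Rela window holds no match. A match stood in 4 of the 5 windows of these genes and in 1480 of all 32851 windows, which is 4.51%. These are matches of letters, and no binding was measured.

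The libraries held 16037242 expected counts in replicate 1 and 14906686 in replicate 2. All 8 macrophage markers were detected, at a summed 3025 and 3706 TPM (a length-corrected level scaled to the same total in every table) in replicates 1 and 2. Of 25 markers of T cells, B cells, dendritic cells, neutrophils and fibroblasts, 1 was detected, the neutrophil gene Mmp8 with 67 and 127 reads, and 5 were at 0 in both libraries, namely Cd3e, Cd3d, Trac, Cd79a and Ly6g. Their summed levels in replicates 1 and 2 were 0.160 and 0.230 TPM for T cells, 0.310 and 0.410 TPM for B cells, 1.78 and 2.16 TPM for dendritic cells, 2.65 and 6.62 TPM for neutrophils, and 0.40 and 0.17 TPM for fibroblasts. Levels come from bulk RNA, in which fewer cells of a type and less RNA per cell cannot be told apart.

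All 5 subunit genes were detected in both libraries. Their mean TPM lay between 35.5 and 69.2, well above the median of 8.61 TPM over the 9339 detected protein-coding genes, and every subunit stood in the top 14.6% of those genes. Together they gave 367 TPM in replicate 1 and 164 TPM in replicate 2, from 22895 and 14276 reads. The highest member stood 1.80 times above the lowest in replicate 1 and 3.33 times in replicate 2. These are gene totals over all annotated transcripts, and those annotated as protein coding lay further apart. In replicates 1 and 2 the latter had 80.3 and 58.0 TPM for Rel, 81.5 and 22.1 for Nfkb2, and 57.4 and 24.1 for Rela. They had 12.9 and 9.42 TPM for Nfkb1 and 29.2 and 4.95 TPM for Relb, the last value under the median of 8.61 TPM.

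Rela, the most widely used activating subunit, had 64.2 TPM in replicate 1 and 33.0 TPM in replicate 2, a mean of 48.6 ± 22.1 TPM (SD, n = 2). Those levels rested on 2467 and 1385 reads, with exact 95% Poisson intervals of 2371 to 2566 and 1313 to 1460 that cover counting error only. Rela lies on chromosome 19 from 5637483 to 5648130 on the plus strand, a span of 10.6 kb with 7 annotated transcripts. It gave 17.5% of the summed subunit TPM in replicate 1 and 20.1% in replicate 2, so its share differed little between the libraries although its level did.

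Rel, the gene of c-Rel, a subunit prominent in blood cells, had by far the most reads, 9948 in replicate 1 and 8792 in replicate 2 (intervals 9753 to 10145 and 8609 to 8978). Per length this came to 80.3 and 58.0 TPM, a mean of 69.2 ± 15.7 TPM (SD, n = 2). Rel lies on chromosome 11 from 23736847 to 23770970 on the minus strand, over 34.1 kb, and the annotation holds 1 transcript of 10 exons and 7466 bases for it, the longest of any member. Its share of the summed subunit TPM was 21.9% in replicate 1 and 35.5% in replicate 2, which made it the leading subunit in replicate 2 only.

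Relb, whose product pairs mainly with p52 and p50, was the lowest of the 5 genes in both gene tables. It had 53.5 TPM in replicate 1 and 17.4 TPM in replicate 2, a mean of 35.5 ± 25.5 TPM (SD, n = 2). The reads numbered 1893 and 842 (intervals 1809 to 1980 and 786 to 901). Relb lies on chromosome 7 from 19606217 to 19629438 on the minus strand, over 23.2 kb with 10 transcripts, and gave 14.6% and 10.6% of the summed subunit TPM in replicates 1 and 2.

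Nfkb1, the gene of p105 and p50, had 72.6 TPM in replicate 1 and 28.1 TPM in replicate 2, a mean of 50.3 ± 31.5 TPM (SD, n = 2). It had 3687 and 1528 reads (intervals 3569 to 3808 and 1452 to 1607), and gave 19.8% and 17.1% of the summed subunit TPM, so its share was nearly even. Nfkb1 is the longest of the genes, 107 kb on the minus strand of chromosome 3 from 135584655 to 135691547, with 10 transcripts. Nfkb2, the gene of p100 and p52, is the shortest, 8.07 kb on the plus strand of chromosome 19 from 46304320 to 46312385, with 8 transcripts. It showed the widest gap of all members, with 96.4 TPM in replicate 1 and 27.2 TPM in replicate 2, a mean of 61.8 ± 49.0 TPM (SD, n = 2) on 4900 and 1729 reads (intervals 4764 to 5039 and 1648 to 1812). Its share of the summed TPM was 26.3% in replicate 1 and 16.6% in replicate 2, and Nfkb2 was therefore the highest of the 5 in replicate 1 and at place 4 in replicate 2.

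By mean TPM the order was Rel, Nfkb2, Nfkb1, Rela and Relb, and no neighbours in it differed beyond their spread between the libraries. The second transcript tables, which the authors derived from the reads without the transcriptome alignment, gave another order. There Rela led with 70.0 TPM in replicate 1 and 34.1 TPM in replicate 2, and Nfkb2 followed with 61.9 and 21.6 TPM. Rel stood at place 3 by mean, with 35.4 and 27.3 TPM in replicates 1 and 2, while Nfkb1 had 37.7 and 14.1 TPM and Relb 36.5 and 12.8 TPM. Which subunit gene was most abundant therefore depended on the table, and these data set no firm ranking among the 5.

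**Figure D1:**
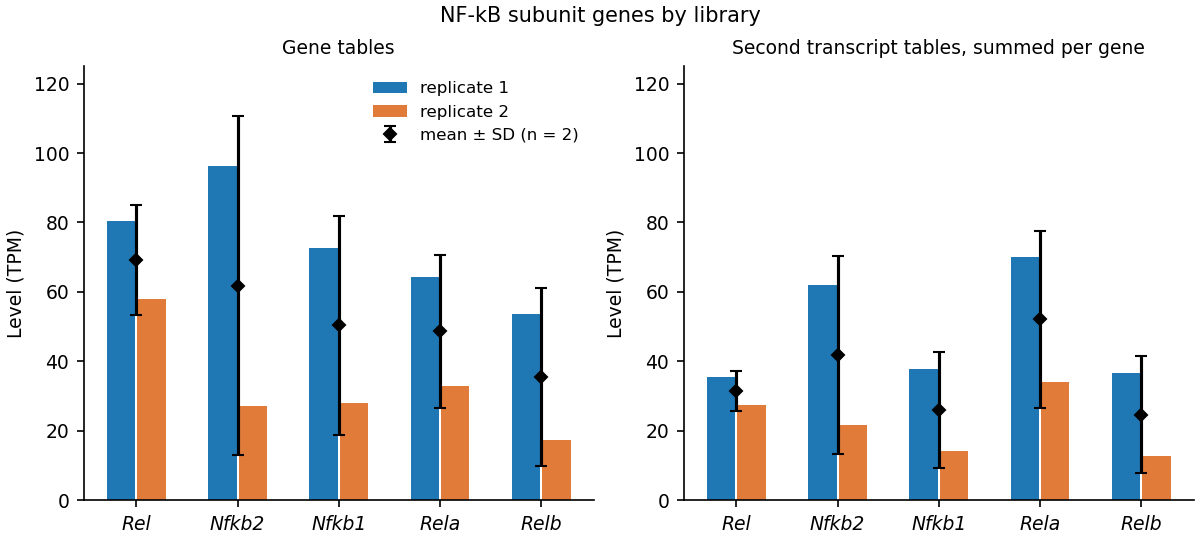
Levels of the 5 NF-kB subunit genes (TPM) in replicate 1 (left bar) and replicate 2 (right bar) from the gene tables and from the second transcript tables. Diamonds and whiskers are the mean and SD of the 2 libraries; each gene has the higher bar in replicate 1, and Rel has the highest mean in the gene tables but stands at place 3 in the second tables.

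Between the libraries Nfkb2, Nfkb1 and Relb stood more than 2-fold higher in replicate 1, Rela stood in between, and Rel hardly differed. Ratios of replicate 1 over replicate 2, from reads scaled by TMM, were 2.68 for Nfkb2, 2.28 for Nfkb1, 2.13 for Relb, 1.68 for Rela and 1.07 for Rel. On the log2 scale these are 1.42, 1.19, 1.09, 0.75 and 0.10. The count past 2-fold was thus 3 of 5, beside 3.59% of the 10448 annotated genes with a mean of at least 50 reads that were past 2-fold in that direction, 5.40% in the other and 8.99% in either. Their median log2 ratio was 1.09, against 0.02 over all those genes. Only 1.10% of genes had a higher ratio than Nfkb2, 2.12% a higher one than Nfkb1, 2.91% than Relb and 8.02% than Rela, whereas 44.4% had a higher one than Rel.

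The ratio compares 2 libraries of 1 group, so it carries no p-value and describes how far the replicates were apart. The amount of starting RNA differed between the libraries in the same direction, and its part in the ratios was not tested. Ratios of TPM run higher, since the log2 TPM ratio of all genes had a median of 0.44. Against that shift, the log2 TPM ratios were 1.83 for Nfkb2, 1.62 for Relb, 1.37 for Nfkb1, 0.96 for Rela and 0.47 for Rel. By the TPM ratio the same 3 genes were past 2-fold, beside 15.1% of 10439 genes in that direction, 1.80% in the other and 16.9% in either. The second tables put 2 of the 5 past it, Nfkb2 and Nfkb1, with log2 ratios of 1.18 and 1.06, beside 3.75% of 16349 genes in that direction, 5.55% in the other and 9.30% in either. Relb was at 1.00, Rela at 0.63 and Rel at 0.04 there. Rel thus sat near the middle of all genes by the TMM-scaled ratio and by the TPM ratio. For the second tables the middle of all genes is not given. The other 4 sat above Rel on each of these scales.

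TPM rescaled over protein-coding genes of the nuclear genome removes the part that abundant non-coding RNA takes in each library. On that scale Rel had 291 TPM in replicate 1 and 288 TPM in replicate 2. Nfkb2 had 349 and 135 TPM and Nfkb1 had 263 and 139 TPM in replicates 1 and 2. Rela had 232 and 163 TPM and Relb 194 and 86.3 TPM. The closeness of Rel thus appeared on this scale too. Nfkb2 and Relb were past 2-fold, while Nfkb1 and Rela were higher in replicate 1 but under 2-fold.

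**Figure D2:**
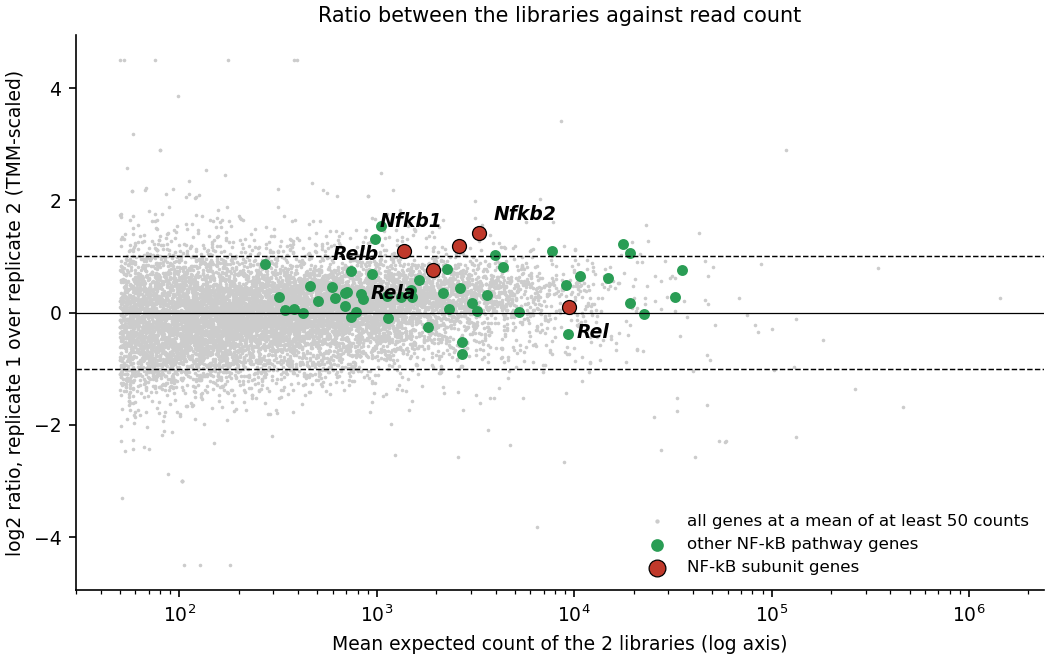
The log2 ratio of replicate 1 over replicate 2 (TMM-scaled) against the mean expected count of the 2 libraries (log axis) for genes with a mean of at least 50 counts, with ratios beyond the axis drawn at its edge and dashed lines at 2-fold. Nfkb2, Nfkb1 and Relb lie above the upper line, Rela at 0.75 and Rel at 0.10 below it.

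The transcript tables divide those reads among the annotated transcripts of each gene, by estimation where transcripts share exons, and hold no read positions. By that division, the Nfkb1 gap between the libraries lay in transcripts annotated as retained intron, not in those annotated as protein coding. Protein-coding transcripts had 542 reads in replicate 1 and 498 in replicate 2, a TMM-scaled ratio of 1.03. Retained-intron transcripts had 3140 and 866 reads, a ratio of 3.43. The second tables put these ratios at 0.951 and 2.68. In nuclear RNA a retained-intron transcript cannot be told apart from RNA that has yet to be spliced.

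Retained-intron transcripts thus made up 82.0% of Nfkb1 TPM in replicate 1 and 50.2% in replicate 2, and protein-coding ones 17.8% and 33.6%. Over the 6018 detected protein-coding genes with such a transcript, the median retained-intron share was 26.0% in replicate 1 and 24.3% in replicate 2, and 53.3% of them had the higher share in replicate 1. Nfkb1 was therefore well above the typical gene in both libraries, while the share of the typical gene differed little between them.

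Among single Nfkb1 transcripts, Nfkb1-204, which follows the first exons and then runs into an intron, led with 1447 reads in replicate 1 and 473 in replicate 2, or 36.9% and 25.4% of the gene's TPM. Nfkb1-208 and Nfkb1-210 are models of 1 exon that lie almost wholly in introns. Nfkb1-208, at 69.4 to 73.6 kb from the gene's start, is 4149 bases long, of which 3985 lie outside every coding transcript. It had 1135 reads in replicate 1 and 223 in replicate 2, a ratio of 4.81 and 23.3% and 9.67% of the TPM. Nfkb1-210, at 87.7 to 89.7 kb, had 216 and 116 reads, a ratio of 1.76, with 9.82% and 11.0% of the TPM. These intron models therefore held 36.6% of all Nfkb1 reads in replicate 1 and 22.2% in replicate 2, with a joint ratio of 3.77.

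Without those models the ratio of Nfkb1 was 1.86, under 2-fold, a setting chosen after seeing the data. Of the coding transcripts, the 23-exon Nfkb1-206 had 313 reads in replicate 1 and 324 in replicate 2, with 9.07% and 19.8% of the TPM, and the 12-exon Nfkb1-203 had 229 and 174 reads, with 8.68% and 13.8%. The 25-exon Nfkb1-201, which spans the whole gene, was given no reads in either library by the first tables. The second tables gave it 0.0675 and 293 reads in replicates 1 and 2. Of the others in the first tables, the retained-intron Nfkb1-202 had 342 and 55 reads, with 12.0% and 4.06% of the TPM. The nonsense-mediated decay transcript Nfkb1-207 had 4 and 164 reads there, with 0.210% and 16.3%, but 0 reads in both libraries of the second tables. Reads in exons that transcripts share are divided by estimation, so single spliced transcripts are less certain than the intron models, which hold bases of their own.

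A further gene model, Gm43430, lies inside Nfkb1 on the same strand, on chromosome 3 from 135650670 to 135654566, which is 37.0 to 40.9 kb from the start of Nfkb1 and within an intron of its coding transcripts. It belongs to the annotation class TEC, for unproven models. It had 3083 reads in replicate 1 and 1420 in replicate 2, 49.1 and 18.4 TPM, a ratio of 2.05. These reads are counted apart from those of Nfkb1, and they nearly equal its own 3687 and 1528. More reads thus fell on this stretch of intron than on all protein-coding transcripts of Nfkb1 together in each library. Whether they come from Nfkb1 RNA or from a separate transcript cannot be told apart here.

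**Figure D3:**
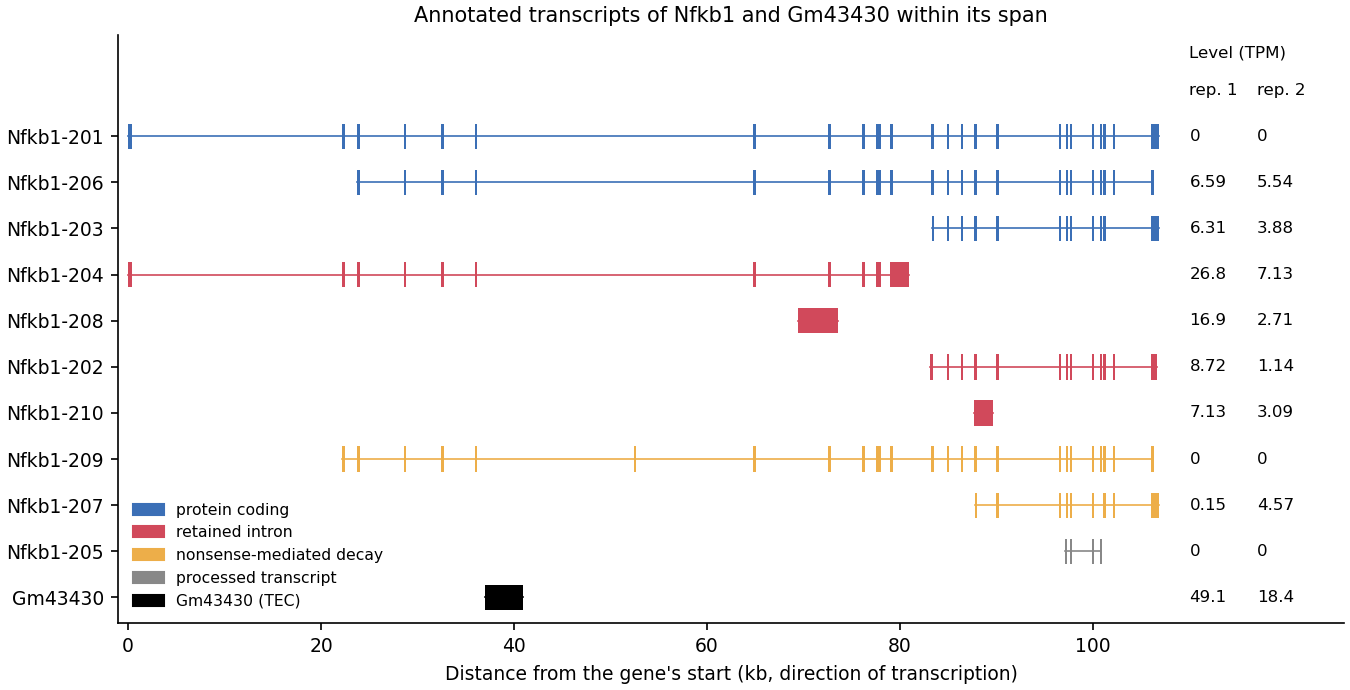
Exons (boxes) of the 10 annotated Nfkb1 transcripts and of Gm43430 against the distance from the start of Nfkb1 (kb), coloured by class, with the TPM in replicates 1 and 2 at the right. The single-exon models at 69.4 to 73.6 kb and 87.7 to 89.7 kb and Gm43430 at 37.0 to 40.9 kb cover introns of the coding transcripts.

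By the same estimated division, Relb showed the reverse of Nfkb1. Its protein-coding transcripts had 843 reads in replicate 1 and 151 in replicate 2, a ratio of 5.28, and its retained-intron transcripts had 951 and 645 reads, a ratio of 1.39. The second tables gave 4.32 and 1.60. Protein-coding transcripts made up 54.6% of Relb TPM in replicate 1 and 28.4% in replicate 2, and retained-intron ones 34.9% and 59.0%. In replicate 2, then, retained-intron transcripts held most of the TPM. In replicate 1 the order depended on the measure, since coding transcripts led by TPM in the first tables but held 44.5% of the reads there, against 50.2% for retained-intron ones, and 33.5% of the TPM in the second tables, against 40.3%.

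The coding transcript Relb-202 led in replicate 1, with 762 reads against 119 in replicate 2, or 42.0% and 16.4% of the TPM. Relb-206 and Relb-208, both retained-intron transcripts over the whole gene, had 634 and 337 reads and 317 and 308 reads in replicates 1 and 2. Their TPM shares were 23.6% and 31.3% for Relb-206, and 11.4% and 27.7% for Relb-208. Of the Relb transcripts, the second tables gave Relb-208 the most reads, 1067 in replicate 1 and 798 in replicate 2. They gave Relb-202 only 88.9 and 0 reads, and Relb-206 0 and 218 reads, so the leading transcript depended on the table. They put further reads on transcripts left empty by the first tables, the retained-intron Relb-205 with 983 and 429 and the coding Relb-201 with 586 and 118. In the first tables smaller parts of the TPM in replicates 1 and 2 went to the 5-exon coding Relb-209, with 12.6% and 12.1%. Relb-210, a nonsense-mediated decay transcript, had 6.78% and 7.26% there. The processed transcript Relb-204 had 3.66% and 5.36% in the first tables but 21.6% and 16.0% in the second.

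Nfkb2 was mostly protein coding in both libraries, and both classes moved alike. Coding transcripts had 4438 reads in replicate 1 and 1536 in replicate 2, a ratio of 2.73, and 84.6% and 81.5% of its TPM. Retained-intron transcripts had 448 and 186 reads, a ratio of 2.28, and 10.4% and 12.5% of the TPM. The rest of the named transcripts held small parts: retained-intron Nfkb2-207 had 9.63% and 7.30%, Nfkb2-205 had 0.790% and 5.21%, and the processed Nfkb2-203 had 5.03% and 5.96%.

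Most Nfkb2 RNA was split between 2 coding transcripts that begin at different places. Nfkb2-202 begins 1.38 kb into the gene, beside the start site of Nfkb2 promoter 2 printed above, which is 1375 bases in. It had 2317 reads in replicate 1 and 590 in replicate 2, a ratio of 3.71, with 48.2% and 35.5% of the TPM. Nfkb2-206 begins at the gene's start, upstream of promoter 1, whose start site is 417 bases in. It had 1947 and 930 reads, a ratio of 1.98, with 32.6% and 45.1% of the TPM. The leading transcript thus differed between the libraries in the first tables. In the second tables Nfkb2-202 led in both, with 38.8% in replicate 1 and 30.0% in replicate 2, against 24.9% and 25.2% for Nfkb2-206.

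Nfkb2 also overlaps genes on the opposite strand, and its value is uncertain to that extent because no source says whether reads were counted by strand. Psd, which shares 299 bases with its 3′ end, had 925 reads in replicate 1 and 370 in replicate 2, a ratio of 2.36. AC114539.1, a long non-coding RNA that starts near the Nfkb2 promoter and shares 1292 bases with the gene, had 687 and 627 reads, a ratio of 1.04. No annotated gene overlaps Rel, Rela or Relb.

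Rela was mainly 1 coding transcript in the first tables. Rela-201 had 2386 reads in replicate 1 and 1262 in replicate 2, a ratio of 1.79, and 87.3% and 73.1% of the TPM. The retained-intron Rela-203 had 58 and 84 reads, or 9.53% and 21%, a ratio of 0.653 that the second tables did not share, at 1.86 from 342 and 208 reads. Those tables gave Rela-201 29.7% and 30.6% of Rela TPM, and gave 28.7% and 16% to Rela-205, a coding fragment of 363 bases with 134 and 72.7 reads. The transcript makeup of Rela thus depended on the table, and its high level in the second tables includes these short transcripts. Rel has a single annotated transcript, Rel-201, so no classes could be compared there.

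**Figure D4:**
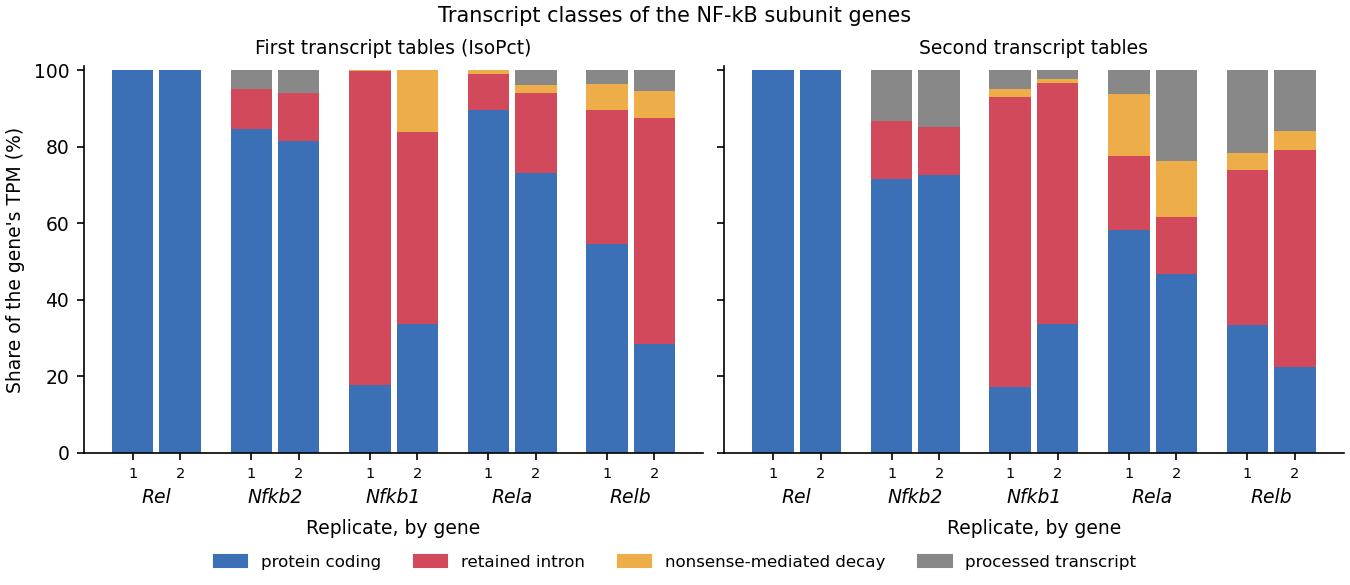
Share of each subunit gene's TPM (%) in protein-coding, retained-intron, nonsense-mediated decay and processed transcripts, for replicates 1 and 2, in the first and the second transcript tables. Retained-intron transcripts fill 82.0% of Nfkb1 in replicate 1 against 50.2% in replicate 2, and 34.9% of Relb in replicate 1 against 59.0% in replicate 2.

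**Figure D5:**
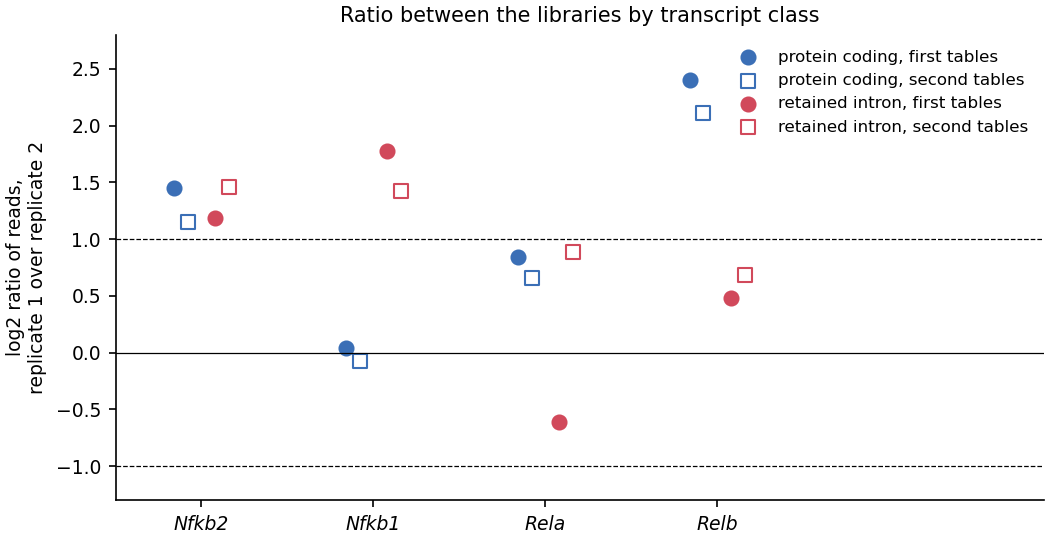
The log2 ratio of reads, replicate 1 over replicate 2 (TMM-scaled), for protein-coding (blue) and retained-intron (red) transcripts of 4 subunit genes, from the first tables (filled circles) and the second tables (open squares), with dashed lines at 2-fold. For Nfkb1 the coding points lie at 0.04 and -0.07 and the retained-intron points at 1.78 and 1.42; for Relb the coding points are the higher ones, at 2.40 and 2.11.

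The rest of the pathway was present too. Of 51 other genes in 6 lists, 50 were detected, and all 50 had enough reads for a ratio. Of these 50, 42 had a log2 ratio above 0, beside a median of 0.02 over all genes with a mean of at least 50 reads. Some of the 42 were barely above 0, such as Ep300 at 0.02. The share of all genes above 0 is not given here. Past 2-fold, 6 were higher in replicate 1 and 0 in replicate 2. The 6 were the kinase gene Ikbke (2.13), the A20-binding Tnip1 (2.92), and the kB targets Icam1 (2.32), Birc3 (2.04), Traf1 (2.48) and Irf1 (2.08). That is 6 of 50, beside the 3.59% of all genes given above, and the second tables put 3 of the 50 past it, beside 3.75% of all genes there, which is near the background.

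Inhibitor genes spanned a wide range, from below to far above the subunits. The list of IkB inhibitors and nuclear IkB proteins had a median of 134 TPM, against 50.3 TPM for the subunits. Nfkbia, the gene of IkBalpha, had 819 TPM in replicate 1 and 443 TPM in replicate 2, a mean of 631 ± 266 TPM, and Nfkbiz, a nuclear IkB protein, averaged 547 ± 174 TPM (SD, n = 2 each). Bcl3, a nuclear partner of p50 and p52, was the lowest of that list at 29.1 ± 11.8 TPM, under all 5 subunits by mean, and Nfkbib, at 47.3 ± 24.3 TPM, was under all but Relb. Ubiquitin regulators had a median of 26.0 TPM, led by Tnfaip3, the gene of A20, at 626 ± 246 TPM, then Tnip1 at 56.0 ± 47.6 TPM, with Rnf31 lowest at 13.4 ± 5.23 TPM.

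Kinases of the pathway were close to the subunits, with a median of 43.1 TPM. Ikbke led them at 225 ± 157 TPM and Tbk1, the other IKK-related kinase, followed at 65.1 ± 28.8 TPM, while Ikbkg, the scaffold of the IKK complex, was lowest at 9.43 ± 3.17 TPM. The listed adaptors of the pathway were near the typical gene, with a median of 9.22 TPM. They ran from Irak1 at 31.5 ± 5.43 TPM and Tab2 at 29.8 ± 3.56 TPM down to Traf2 at 5.19 ± 2.72 TPM. Coactivators of RelA had a median of 19.3 TPM, with Ep300, a histone acetyltransferase, at 35.8 ± 5.83 TPM and Carm1, an arginine methyltransferase, at 8.03 ± 0.686 TPM.

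The 14 kB target genes were the highest list, with a median of 287 TPM. Cxcl2, a neutrophil-attracting chemokine, averaged 867 ± 189 TPM and Tnf 851 ± 148 TPM. Il6 was the lowest and the only listed gene not detected, with 23 reads in replicate 1 and 12 in replicate 2. The lists' median log2 ratios between the libraries were 0.54 for the IkB genes, 0.50 for the kinases, 0.36 for the ubiquitin regulators, 0.35 for the targets, 0.21 for the adaptors and 0.11 for the coactivators, all under the 1.09 of the subunits.

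For each subunit gene the 2 pathway genes nearest in level were taken, by the distance between values of log2(TPM + 1) over the 2 libraries. Those are too few points for a correlation. The distance had no upper limit, so every subunit gene was bound to have such neighbours. Rela lay nearest to Nfkbib, the gene of IkBbeta (distance 0.13), and to Ikbkb, the gene of the kinase IKKbeta (0.16). The same genes were nearest to Nfkb1, at 0.20 and 0.35. Rel lay nearest to Tbk1 (0.38) and Nfkbie, another IkB gene (0.71), and Nfkb2 to Tnip1 (0.29) and Nfkbib (0.59). Relb lay nearest to Traf1 (0.17), which had 47.5 TPM in replicate 1 and 16.8 TPM in replicate 2, and then to Bcl3 (0.56).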

How the data were processed

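Per the labels, the authors quantified each library on mm10 with the GENCODE M21 annotation into 1 gene table and 2 transcript tables. The deposited gene tables and first transcript tables hold expected counts, TPM and FPKM per the file headers, and the first transcript tables also each transcript's percent of the TPM of its gene. The second deposited transcript tables, made from the reads directly, hold estimated counts and TPM. No tool and no use of strand is given in the sources used here. TPM and FPKM are per length and sum over all entries of a table. Entries outside annotated genes held 1.19% of the expected counts of replicate 1 and 0.213% of replicate 2 and were left out of scaling.

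Rounded expected counts were scaled by TMM (edgeR 4.0.16, R 4.3.3) over genes whose mean count was 10 or more. Ratios needed a mean count of 50, and a detected gene had 1 TPM or more in each library. The scaling was tested on simulated data. Other computations used Python 3.11.15 with pandas 2.3.3 and scipy 1.17.1. With 1 group there was no test of conditions. Alternatives were library size, DESeq2 1.42.0 size factors, TMM without a filter, ratios of TPM, other count minimums, FPKM, rescaled TPM, shares of expected counts, the second tables and leaving out a library, with others added after seeing the data. Reads lack molecular identifiers, so intervals cover counting error only.

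Named were all 5 genes, their transcripts with at least 5% of the TPM in either library, overlapping genes, the 2 highest and the lowest gene of each pathway list, pathway genes past 2-fold and the 2 nearest each subunit gene. A gene within that rule is not reported here. Transcripts and markers named beyond that were chosen after their values were seen. Members, lists and markers were chosen with earlier results of these data known.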

Additional observations from a re-analysis of the deposited data

How the results depend on the processing

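The 5 ratios kept their direction under library size, DESeq2 size factors, TMM without a filter, ratios of TPM and the second tables, and none reversed. Nfkb1 was no longer past 2-fold, with a log2 ratio of 0.04 from protein-coding transcripts alone and 0.89 without its single-exon retained-intron transcripts. Both settings were chosen after seeing the data. They leave out transcripts already seen to differ, so a lower ratio was bound to follow. Relb came to 1.00, just under 2-fold, in the second tables, where 2 of the 5 genes passed. Pathway genes past 2-fold numbered 11 of 50 by the ratio of TPM, beside 15.1% of all genes, and 3 of 50 in the second tables, beside 3.75%, against 6 of 50 beside 3.59%. The mean level of Rel was 31.4 TPM in the second tables, where Rela took place 1, Rel place 3 and Nfkb1 place 4. Leaving out either library moved Nfkb2 between places 1 and 4, Rel between 1 and 2, and Rela between 2 and 4. Retained-intron and coding shares of Nfkb1 and Relb moved by less than the spread. Those of Nfkb2 moved to 72.1% coding and 13.7% retained intron in the second tables and to 89.7% and 9.96% by counts, and those of Rela to 52.5% coding in the second tables and to 94.0% and 4.21% by counts. Median levels of the lists in the second tables were 80.4 TPM for IkB genes, 25.3 for kinases, 5.0 for adaptors, 13.7 for ubiquitin regulators, 13.8 for coactivators and 182 for targets, and adaptors ranged between 8.49 and 11.6 TPM with either library left out. The cause of these shifts was not tested. No paired analysis was possible because there was 1 group. With 2 libraries, differences between the subunit levels were not resolvable.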

Other observations

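Among the kB target genes, 4 of the 13 tested had lower scaled reads in replicate 1 and 9 had higher ones. The median log2 ratio over all genes with a mean of at least 50 reads was 0.02. The 4 are named here after their values were seen. The ratio of replicate 1 over replicate 2 was 0.596 for the chemokine gene Ccl3, 0.697 for Ptgs2, which encodes an enzyme of prostaglandin synthesis, and 0.770 for the transcription factor gene Junb. Tnf, at 0.977, hardly differed. Ccl3 had 2102 reads in replicate 1 and 3336 in replicate 2, and Ptgs2 had 2308 and 3130. Known targets thus lay on both sides of equal in these libraries, with Icam1 at 2.32 and Ccl3 at 0.596.

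Lyz2, a macrophage marker, had 27257 reads in replicate 1 and 53175 in replicate 2, a ratio of 0.485. The nuclear RNA Neat1 had 2520 TPM in replicate 1 and 990 TPM in replicate 2, and Malat1 had 26578 and 19616 TPM. Those TPM values are not scaled by TMM, and the log2 TPM ratio of all genes with a mean of at least 50 reads had a median of 0.44. The Malat1 values are apart by about that shift. The part of Lyz2, Neat1 and Malat1 in the ratios of the subunit genes was not tested.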
